A study of Homo sapiens with 6 samples.

Results

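Small nucleolar RNA host genes are long noncoding RNA genes whose transcripts carry small nucleolar RNAs (snoRNAs). They were taken as the rows of the deposited count table named SNHG followed by digits, plus GAS5, EPB41L4A-AS1 and ZFAS1. This gave 31 genes of 61267 in the table. RNA was sequenced from the human monocytic leukemia line THP-1 after 48 h with 100 ng/ml of the phorbol ester PMA, which makes these cells adhere. The genotype label gave 3 libraries as NC (NC 1, NC 2 and NC 3) and 3 as KD (KD 1, KD 2 and KD 3), all 6 of the same line and with the same PMA treatment. The labels name no target for KD and do not say how it was made, and the series title names METTL1, a tRNA methyltransferase, and acute inflammation. The labels do not say whether libraries of a group are separate cultures, so each test measures a spread between libraries that may be technical.

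Most snoRNAs of human cells are cut out of the introns of longer transcripts during splicing. Box C/D snoRNAs guide ribose methylation of ribosomal RNA, box H/ACA snoRNAs guide its pseudouridylation, and small Cajal body RNAs (scaRNAs) guide the same modifications on spliceosomal RNAs. The spliced exons of a noncoding host gene encode no long protein. Many of these spliced RNAs are removed by nonsense-mediated decay, which couples their level to translation. Several host genes begin transcription at a C followed by a run of pyrimidines, as the genes of ribosomal proteins do.

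Several library-wide measurements bear on every value below. METTL1 was at 14.8 ± 1.01 (NC) and 13.7 ± 0.605 (KD) CPM (counts per scaled library size by TMM, mean ± SD, n = 3 each) and missed the threshold, with a log2 fold change, KD over NC, of -0.10 ± 0.077 (SE, edgeR adjusted p = 0.216). Of 55 leukocyte-restricted genes, 54 were tested and 50 rose in KD, with the smallest p in ARHGDIB, LCP2, LST1 and NCKAP1L, and their summed level was 3823 to 4018 CPM in NC and 9852 to 10005 CPM in KD. All 14 genes of a list typical of HEK293, a human embryonic kidney line, fell, with a summed level of 2588 to 2997 CPM in NC and 12.8 to 14.4 CPM in KD. BEX2, IRS4, DSP and DSG2 had the smallest p of that list, and 5 of its 14 genes had no count in any KD library. Of 12 markers of T, NK and B cells, 6 were tested, of which 2 (GNLY and TRAC) rose and 3 (PAX5 and CD8A among them) fell, with a summed level of 8.79 to 10.0 CPM in NC and 16.3 to 18.6 CPM in KD. The part of these differences in the host gene results was not tested. In bulk RNA, fewer cells of a type and less RNA per cell cannot be told apart. A scale was therefore set beside TMM in which the normalization factors came from the leukocyte-restricted genes alone, called the leukocyte scale here. It moved the median log2 fold change of all 21905 tested genes from -0.05 to -1.28. METTL1, which missed the threshold on the TMM scale, was lower on the leukocyte scale (-1.34, edgeR adjusted p = 6.75e-16). With library sizes alone and no TMM factors it was lower as well (-0.29, edgeR adjusted p = 0.00249).

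The first bases of the host gene transcripts are shown because the pyrimidine start is the sequence feature these genes are best known for. RefSeq start windows (GRCh38.p14) of 20 bases before the start and 30 from it were at hand for 27 of the 31 members. A C at the start with at least 4 further C or T bases behind it was found in 7 of the 27 (25.9%), namely SNHG4, SNHG5, SNHG12, SNHG18, SNHG19, SNHG32 and ZFAS1. The search ran on the transcribed strand only, since the feature is a property of the RNA. The same feature was present in 4.04% of 27305 RefSeq promoters and in 63.8% of the 69 promoters of ribosomal protein genes. CACGTG, which reads alike on both strands, occurred in the promoter (250 bases before the start to 50 after it) of 2 members (7.41%) and of 7.43% of all promoters. The windows below run 5′ to 3′ on the transcribed strand, with the pyrimidine run in capitals. The first 6 are the tested members with the run. The last 3 are examples without it that reached 10 CPM in NC, and all 3 were lower in KD. Other members without the run, such as SNHG3 and SNHG28, were higher on the TMM scale.
SNHG12 chr1:28581844-28581893, minus strand: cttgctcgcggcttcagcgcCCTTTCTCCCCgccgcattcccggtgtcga
SNHG4 chr5:139274081-139274130, plus strand: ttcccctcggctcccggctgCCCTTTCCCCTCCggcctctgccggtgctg
SNHG32 chr6:31834896-31834945, plus strand: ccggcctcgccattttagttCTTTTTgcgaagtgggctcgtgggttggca
SNHG5 chr6:85678704-85678753, minus strand: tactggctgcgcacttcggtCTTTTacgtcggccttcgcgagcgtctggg
SNHG19 chr16:2155329-2155378, minus strand: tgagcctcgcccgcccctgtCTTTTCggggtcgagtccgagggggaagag
ZFAS1 chr20:49278622-49278671, plus strand: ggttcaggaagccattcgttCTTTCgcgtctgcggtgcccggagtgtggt
SNHG29 chr17:16438967-16439016, plus strand: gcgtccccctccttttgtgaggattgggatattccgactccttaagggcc
SNHG17 chr20:38435299-38435348, minus strand: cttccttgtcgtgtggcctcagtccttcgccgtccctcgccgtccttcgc
SNHG1 chr11:62855856-62855905, minus strand: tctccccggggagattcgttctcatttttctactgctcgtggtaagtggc
The runs were 5 to 13 bases long in these 6 members, and no match says only that these letters are not at the RefSeq start used.

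The host genes as a group took a small part of each library. Together they held 0.0535% to 0.0546% of all counts in NC and 0.0483% to 0.0515% in KD, from 37628972 to 42970216 total counts per library. Of the 31 genes, 28 had enough counts to be tested and 23 of these (82.1%) passed an adjusted p of 0.05 in edgeR's quasi-likelihood test, against a background of 76.5% of all tested genes. On the TMM scale 8 members (28.6%) were higher in KD, against 36.2% of all tested genes, whereas on the leukocyte scale 0 were higher, against 3.06%. On the TMM scale 15 members (53.6%) were lower in KD, against 40.3% of all tested genes, and on the leukocyte scale 26 were lower, against 84.2%. The median log2 fold change of the 28 was -0.41 on the TMM scale, beside -0.05 for all tested genes, and -1.65 on the leukocyte scale, beside -1.28. The groups did not overlap in 22 of the 28 (78.6%), against 78% of all tested genes. A change of at least 2-fold passed the test upward in 2 members, against 12.6% of all tested genes, and downward in 7, against 22.9%.

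**Figure D1:**
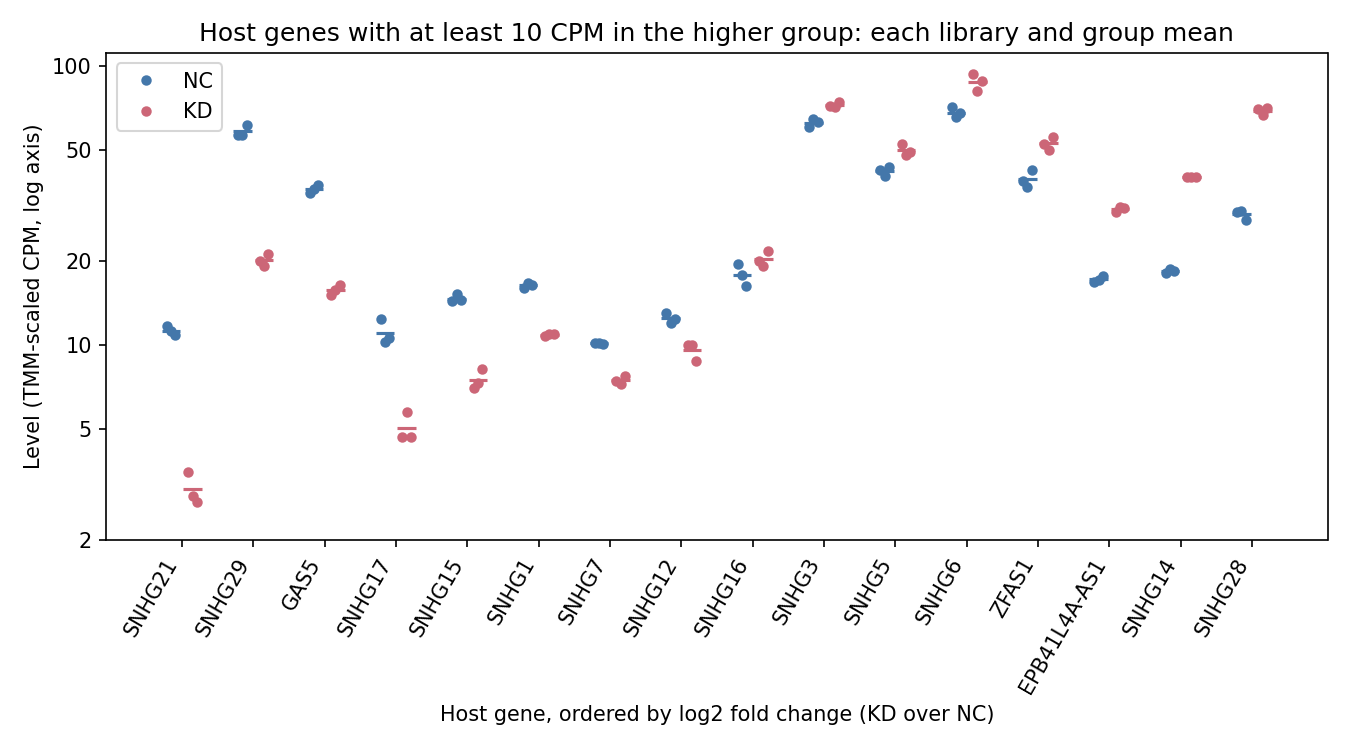
Level of each of the 16 host genes that reached 10 CPM in the higher group, on a log axis of TMM-scaled CPM, with 1 point per library and a bar at each group mean (n = 3 each). From SNHG21 to SNHG12 every NC point lies above every KD point, from SNHG3 to SNHG28 every KD point lies above every NC point, and the groups overlap in SNHG16.

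The 4 hosts of scaRNAs all fell. SNHG22 (chr18:49813965-49851059, plus strand), which carries SCARNA17, was at 3.25, 2.44 and 3.85 CPM in NC 1, NC 2 and NC 3 and at 0.457, 0.536 and 0.481 CPM in KD 1, KD 2 and KD 3. It fell 6.45-fold, with a log2 fold change of -2.69 ± 0.233 (SE, edgeR adjusted p = 1.35e-10). Of the SNHG22 exon bases, 229 also lie in MYO5B, a myosin gene on the other strand, which had a log2 fold change of -3.62. The SNHG22 start lies 12 bases from that of ACAA2, a gene of mitochondrial fatty acid oxidation on the other strand. ACAA2 was at 24.4 ± 1.42 (NC) and 25.2 ± 1.16 (KD) CPM and missed the threshold on the TMM scale (edgeR adjusted p = 0.502), but was lower on the leukocyte scale (-1.19). SNHG21 (chr15:82750564-82757206, plus strand), the host of SCARNA15, was at 11.7, 11.3 and 10.9 CPM in NC and at 3.51, 2.88 and 2.74 CPM in KD. It fell 3.70-fold (log2 fold change -1.89 ± 0.112, edgeR adjusted p = 7.05e-14), with every KD library below every NC library. Exons of other genes hold 72.9% of the SNHG21 exon bases, chiefly the same-strand transcript ENSG00000252690 (-1.79 on the log2 scale) and FSD2 on the other strand (-1.30), so its reads cannot be assigned to SNHG21 alone. SNHG10, which carries SCARNA13, fell from 3.80 ± 0.717 to 1.64 ± 0.432 CPM (mean ± SD, n = 3 each), a log2 fold change of -1.21 ± 0.190 (edgeR adjusted p = 3.12e-06). SNHG20, which carries SCARNA16, fell from 3.32 ± 0.402 to 1.58 ± 0.429 CPM, a log2 fold change of -1.07 ± 0.189 (edgeR adjusted p = 1.59e-05). All 4 scaRNA hosts thus fell at least 2-fold, as did 22.9% of all tested genes, with a median log2 fold change of -1.55.

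Among the members above 20 CPM, SNHG29 and GAS5 fell the most. SNHG29 (chr17:16438767-16480249, plus strand), the host of SNORD49A, SNORD49B and SNORD65, was at 56.7, 56.8 and 61.7 CPM in NC and at 20.1, 19.3 and 21.3 CPM in KD. The 2.89-fold fall (log2 fold change -1.53 ± 0.055, edgeR adjusted p = 3.20e-18) was far wider than the spread within either group. SNHG29 shares 500 exon bases with LRRC75A on the other strand, which fell too (-1.24 ± 0.106). All counts of LRRC75A would make up at most 19.0% of the SNHG29 counts in NC and 23.4% in KD. GAS5 (chr1:173858559-173868882, minus strand), known for accumulating in growth-arrested cells and for binding the glucocorticoid receptor, was at 35.1, 36.3 and 37.5 CPM in NC and at 15.1, 15.7 and 16.5 CPM in KD. GAS5 fell 2.30-fold (log2 fold change -1.20 ± 0.060, edgeR adjusted p = 2.45e-15), again with no overlap between groups. GAS5 shares 132 exon bases with GAS5-AS1 on the other strand. ZBTB37, whose start lies 800 bases from that of GAS5 on the other strand, was at 14.5 ± 0.738 (NC) and 15.2 ± 1.15 (KD) CPM. It missed the threshold on the TMM scale (edgeR adjusted p = 0.395) but was lower on the leukocyte scale (-1.17).

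Another 5 members above 10 CPM fell by 1.30-fold to 2.20-fold. SNHG17 (chr20:38419638-38435409, minus strand), the host of 4 SNORA71 genes, was at 12.4, 10.3 and 10.6 CPM in NC and at 4.70, 5.77 and 4.69 CPM in KD (log2 fold change -1.13 ± 0.108, edgeR adjusted p = 7.77e-10). SNHG15 (chr7:44983019-44986961, minus strand), the host of SNORA9, was at 14.4, 15.2 and 14.5 CPM in NC and at 7.04, 7.30 and 8.21 CPM in KD (-0.97 ± 0.085, edgeR adjusted p = 1.90e-10). Neither gene shares an exon base with another gene of the table apart from the small RNAs inside it. SNHG1 (chr11:62851978-62855953, minus strand), inside which the table lists 6 box C/D snoRNA genes, was at 16.1, 16.7 and 16.4 CPM in NC and at 10.8, 11.0 and 11.0 CPM in KD (-0.58 ± 0.073, edgeR adjusted p = 1.01e-07). The same holds for SNHG1. Its head-to-head neighbour SLC3A2, an amino acid transporter subunit that starts 51 bases away on the other strand, went the other way, from 165 ± 4.59 to 251 ± 2.67 CPM (0.60 ± 0.040, edgeR adjusted p = 6.49e-13), but was lower on the leukocyte scale (-0.63). SNHG7 (chr9:136721366-136728184, minus strand), the host of SNORA17A and SNORA17B, was at 10.2, 10.2 and 10.1 CPM in NC and at 7.44, 7.25 and 7.75 CPM in KD (-0.44 ± 0.089, edgeR adjusted p = 8.66e-05). SNHG12 (chr1:28578538-28583132, minus strand), the host of SNORA61, SNORA44, SNORA16A and SNORD99, was at 13.02, 12.1 and 12.4 CPM in NC and at 10.0, 10.1 and 8.77 CPM in KD (-0.38 ± 0.085, edgeR adjusted p = 0.000299). In all 5 genes the highest KD library was below the lowest NC library. Exons of DIPK1B on the other strand, which fell (log2 fold change -2.36 ± 0.159), hold 1482 of the SNHG7 exon bases, and SNHG12 shares 8 bases with TRNAU1AP.

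The largest rises on the TMM scale were those of SNHG28, SNHG14 and EPB41L4A-AS1, of which none was higher on the leukocyte scale. SNHG28 (chr1:159834480-159855071, minus strand) was at 30.1, 30.2 and 28.04 CPM in NC and at 70.4, 67.1 and 70.7 CPM in KD, 2.36-fold higher (log2 fold change 1.24 ± 0.049, edgeR adjusted p = 1.87e-17). On the leukocyte scale the SNHG28 log2 fold change was -0.00055 (edgeR adjusted p = 0.993). Other genes hold 90.8% of the SNHG28 exon bases. Its same-strand partner ENSG00000256029, which GENCODE release 29 itself names SNHG28, shares 5133 bases and rose from 40.3 ± 0.085 to 92.9 ± 1.35 CPM (1.21 ± 0.043). SLAMF8, a receptor gene of myeloid cells on the other strand, shares 1099 bases and rose by a like amount (1.21 ± 0.042), so the SNHG28 counts cannot be told apart from those of these 2 genes.

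SNHG14 (chr15:24978583-25420336, plus strand) is the long imprinted transcript of the Prader-Willi region, expressed from the paternal copy and known as the host of the SNORD115 and SNORD116 clusters. It was at 18.2, 18.8 and 18.4 CPM in NC and at 40.1, 40.0 and 40.2 CPM in KD, with a spread below 2% of the mean in either group. The gene was 2.17-fold higher in KD on the TMM scale (log2 fold change 1.12 ± 0.055, edgeR adjusted p = 1.60e-15), and its log2 fold change on the leukocyte scale was -0.12 (edgeR adjusted p = 0.063). Other transcripts of the same locus and strand rose beside it on the TMM scale, namely SNRPN (1.37 ± 0.077), which encodes a spliceosomal protein, the noncoding PWAR5 (1.72 ± 0.193) and ENSG00000214265 (1.53 on the log2 scale). They share 141, 3180 and 1049 exon bases with SNHG14, where a read is counted for each gene, so their changes are not independent of that of SNHG14. On the leukocyte scale the log2 fold change of PWAR5 was 0.49 (edgeR adjusted p = 0.025) and that of SNRPN 0.13 (edgeR adjusted p = 0.133). UBE3A, the ubiquitin ligase gene that SNHG14 runs into on the other strand, had a smaller log2 fold change of 0.26 ± 0.042 on the TMM scale and one of -0.97 on the leukocyte scale. EPB41L4A-AS1 (chr5:112160526-112164818, plus strand), the host of SNORA13, was at 16.8, 17.2 and 17.8 CPM in NC and at 30.01, 31.3 and 31.1 CPM in KD. It was 1.79-fold higher on the TMM scale (0.84 ± 0.060, edgeR adjusted p = 3.21e-12) and lower on the leukocyte scale (-0.40, edgeR adjusted p = 1.95e-06). EPB41L4A on the other strand holds 51.2% of its exon bases and had a log2 fold change of 0.63 ± 0.072 on the TMM scale and -0.61 on the leukocyte scale.

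The other 5 risers were abundant host genes that changed by less than 1.5-fold on the TMM scale and were lower in KD on the leukocyte scale. ZFAS1 (chr20:49278178-49299600, plus strand), the host of the SNORD12 family and antisense to the start of ZNFX1, was at 38.9, 37.1 and 42.7 CPM in NC and at 52.8, 49.95 and 56.0 CPM in KD (0.42 ± 0.055 on the TMM scale, -0.82 on the leukocyte scale). SNHG6, the host of SNORD87, was at 71.3, 65.8 and 67.8 CPM in NC and at 93.6, 81.7 and 88.5 CPM in KD (0.36 ± 0.048 and -0.87). MCMDC2 on the other strand holds 58.9% of the SNHG6 exon bases, but all of its counts would make up at most 6.85% of the SNHG6 counts in NC and 6.38% in KD. SNHG5 (chr6:85650491-85678932, minus strand), the host of SNORD50B, was at 42.4, 40.5 and 43.6 CPM in NC and at 52.9, 48.1 and 49.3 CPM in KD (0.25 ± 0.050 and -0.99). SNHG3 (chr1:28505980-28510892, plus strand), the host of SNORA73A and SNORA73B, which serve in the processing of ribosomal RNA, was at 60.6, 64.8 and 63.1 CPM in NC and at 72.1, 71.6 and 74.8 CPM in KD (0.21 ± 0.044 and -1.02). In these 4 genes every KD library was above every NC library on the TMM scale. SNHG16 (chr17:76557727-76670985, plus strand), the host of 3 SNORD1 genes, was at 19.5, 17.8 and 16.3 CPM in NC and at 19.97, 19.2 and 21.8 CPM in KD, so that its groups overlapped. Its log2 fold change of 0.19 ± 0.074 passed narrowly (edgeR adjusted p = 0.025). Without NC 2, NC 3 or KD 3 it did not pass (edgeR adjusted p = 0.054, 0.171 and 0.117). With library sizes alone the log2 fold changes of SNHG3, SNHG5 and SNHG16 were 0.03, 0.06 and below 0.01, and none of the 3 passed the test.

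A region of ZFAS1 held most of its counts. The 93-base row ENSG00000274760 (RF02216, chr20:49279116-49279208, plus strand) listed by GENCODE release 29 under an Rfam name as a miscellaneous RNA, had counts equal to 71.7% to 78.8% of those of ZFAS1 in the 6 libraries. The 87-base row ENSG00000277967 (RF02217) had 57.6% to 63.0%. Reads that touch both rows were counted for each of them, so these shares overlap. The rows were higher on the TMM scale by 0.49 ± 0.061 and 0.37 ± 0.064 on the log2 scale, beside 0.42 for ZFAS1, and lower on the leukocyte scale, by values of -0.75 and -0.87. The sequence of the longer row, from the GENCODE release 29 transcripts, is shown because most ZFAS1 counts touch it.
ENSG00000274760, 93 bases: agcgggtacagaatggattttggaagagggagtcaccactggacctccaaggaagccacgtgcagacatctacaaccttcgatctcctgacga

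The remaining 12 tested members were below 10 CPM in both groups. Beside the 3 scaRNA hosts SNHG10, SNHG20 and SNHG22, 4 of them fell. SNHG11, the host of SNORA71E and SNORA60, fell from 2.41 ± 0.255 to 1.32 ± 0.176 CPM (log2 fold change -0.87 ± 0.191, edgeR adjusted p = 0.000249). SNHG8, the host of SNORA24, fell from 9.72 ± 0.104 to 7.79 ± 0.483 CPM (-0.32 ± 0.091, edgeR adjusted p = 0.00275), and PRSS12 on the other strand, which holds 37.6% of its exon bases, fell as well (-0.89). SNHG31, which starts 498 bases from the BRCA1 partner gene BARD1, went from 1.06 ± 0.144 to 0.610 ± 0.185 CPM (-0.79, edgeR adjusted p = 0.016). This call was lost without NC 1 or KD 1 (edgeR adjusted p = 0.062 and 0.074). SNHG30, the host of SNORD7, went from 2.44 ± 0.216 to 1.75 ± 0.223 CPM (-0.47, edgeR adjusted p = 0.020), a call lost without NC 2 or KD 1 (edgeR adjusted p = 0.079 and 0.093).

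The other 5 did not pass the test on the TMM scale. SNHG4, the host of SNORA74A, was at 8.30 ± 0.675 (NC) and 7.497 ± 0.530 (KD) CPM (-0.15, edgeR adjusted p = 0.182), and passed with library sizes alone (-0.33, edgeR adjusted p = 0.00540). SNHG26, the host of SNORD93, was at 3.52 ± 0.039 and 3.28 ± 0.275 CPM (-0.10, edgeR adjusted p = 0.508). SNHG32, the host of SNORD48 and SNORD52, was at 1.17 ± 0.098 and 1.23 ± 0.224 CPM (0.06, edgeR adjusted p = 0.811). In these 3 genes the groups overlapped, and a difference smaller than the spread was not detectable at this depth. SNHG19, the host of SNORD60, was at 0.723 ± 0.213 and 0.509 ± 0.185 CPM (-0.50 ± 0.354, edgeR adjusted p = 0.203). SNHG25, the host of SNORD104 and SNORA50C, was at 0.281 ± 0.024 and 0.254 ± 0.051 CPM (-0.14 ± 0.449, edgeR adjusted p = 0.784). At these 2 levels a log2 difference as large as that of SNHG1 lies within 2 SE, so it would not have been detectable. All 5 were lower on the leukocyte scale, with log2 fold changes of -1.17 to -1.73. The 3 untested members had few counts in any library, with 2 to 14 for SNHG9, 0 to 14 for SNHG27 and 0 to 2 for SNHG18. RPS2, the ribosomal protein gene that starts 54 bases from SNHG9 on the other strand, was at 591 ± 15.8 (NC) and 235 ± 8.11 (KD) CPM.

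The counts of the partner genes bound how many counts of a member could be shared with them. Beside SNHG6 and SNHG29 above, the bound in NC was 27.99% for SNHG16, 86.8% for SNHG7, 96.1% for SNHG12 and 97.4% for EPB41L4A-AS1. It was 100% for GAS5, SNHG3, SNHG5, SNHG14, SNHG21, SNHG28 and ZFAS1, and among the lower members also for SNHG4, SNHG8, SNHG10, SNHG20, SNHG22 and SNHG32. For these the partner counts set no limit on shared reads, whatever the number of shared bases.

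Genes that share exons with the members, or start within 1000 bases of them on the other strand, did not all move with them. RCC1 shares 242 exon bases with SNHG3 on the same strand and fell (-0.25 ± 0.041) where SNHG3 rose on the TMM scale. MATR3 shares 626 bases with SNHG4 and was at 674 ± 12.7 (NC) and 654 ± 23.0 (KD) CPM (edgeR adjusted p = 0.338 on the TMM scale, log2 fold change -1.28 on the leukocyte scale). SIL1 on the other strand shares 118 bases with SNHG4. SNHG5 shares 943 bases with the same-strand row ENSG00000271793, which was at 890 ± 32.4 (NC) and 1225 ± 37.5 (KD) CPM (0.46 ± 0.044 on the TMM scale, -0.78 on the leukocyte scale), and 715 with the pseudogene PKMP3. ENSG00000285565, which shares 418 bases with SNHG32 on the same strand, fell (-0.41 ± 0.052). SNHG20 shares 460 bases with SEC14L1, which rose on the TMM scale (0.52 ± 0.075) and was lower on the leukocyte scale (-0.72), opposite to SNHG20 on the first scale, and 81 bases with MIR6516. SNHG10 shares 301 bases with GLRX5 (-0.48 ± 0.084), SNHG26 544 with ENSG00000226329 and SNHG16 1648 with ENSG00000284526, all on the other strand. TRAF7, head to head with SNHG19 at 293 bases, rose on the TMM scale (0.47 ± 0.053) and was lower on the leukocyte scale (-0.77), and BARD1, head to head with SNHG31, fell with it (-1.28 ± 0.121). The other such rows were below 10 CPM, namely ENSG00000267546 for SNHG16, ENSG00000286817 for SNHG21, ENSG00000255513 for SNHG9, SEMA5A for SNHG18, ENSG00000252139 for SNHG22, VSIG8 and ENSG00000272668 for SNHG28, ENSG00000277830 for ZFAS1, ENSG00000281010 for SNHG19 and ENSG00000281311 for SNHG25. For SNHG14 they were ENSG00000257647, ENSG00000261069, ENSG00000287482 and PWAR1.

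The members were also compared by the small RNA genes that lie inside them on their strand, beside 36.2% higher and 40.3% lower among all tested genes on the TMM scale. Of 11 tested members with box C/D genes alone, 5 rose on the TMM scale, 3 fell and 3 did not pass, with a median log2 fold change of 0.06. Of 9 tested members with box H/ACA genes alone, 2 rose on the TMM scale (SNHG3 and EPB41L4A-AS1), 6 fell and 1 did not pass, with a median of -0.44. The scaRNA hosts were 4 of 4 lower, from -2.69 to -1.07. SNHG12 and SNHG25, which hold both classes, were lower and not passed, and the 2 tested members with no such gene in the table, SNHG28 and GAS5, went in opposite directions on the TMM scale. The classes follow the rows of the table, so a missing row does not show that a gene hosts no snoRNA. No member of any class was higher on the leukocyte scale, and no difference between classes was tested. The counts are small, those of the box C/D hosts lie near the shares of all tested genes, and all are given as a description.

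**Figure D2:**
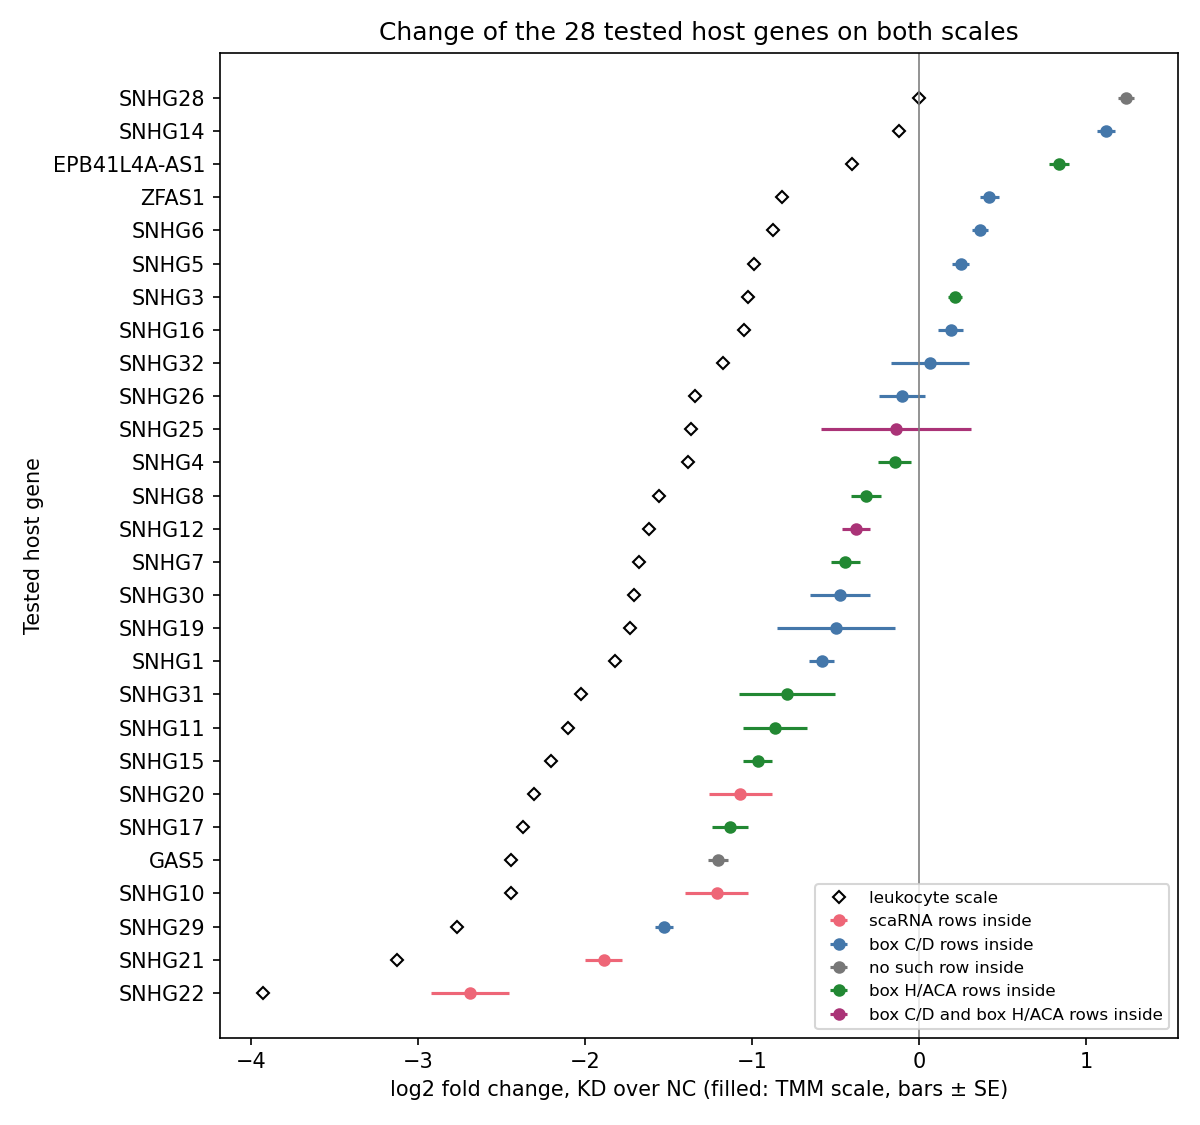
Log2 fold change, KD over NC, of the 28 tested host genes, ordered by size, with filled points and bars for the TMM scale (± SE), open diamonds for the leukocyte scale and colours for the small RNA genes inside each host. The 4 scaRNA hosts lie at -1.07 or below, and every diamond lies left of its filled point and at or below 0.

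The order of the members by level changed between groups. Per kilobase of exon, SNHG6 (27.0 ± 1.09 CPM per kb in NC, 34.8 ± 2.35 in KD) and SNHG3 (15.4 ± 0.510 and 17.8 ± 0.419) were the highest and the next highest in both groups, with no overlap between the pair in either group. SNHG21, the next in NC at 10.7 ± 0.392 CPM per kb, was at 2.89 ± 0.388 in KD. GAS5 went from 7.37 ± 0.244 to 3.20 ± 0.137 and SNHG29 from 6.53 ± 0.318 to 2.26 ± 0.111 CPM per kb. Their places behind SNHG3 were taken in KD by SNHG28 (5.21 ± 0.217 in NC, 12.3 ± 0.357 in KD), EPB41L4A-AS1 (4.02 ± 0.115 and 7.17 ± 0.161) and ZFAS1 (4.75 ± 0.343 and 6.36 ± 0.363). In NC the libraries of SNHG28 overlapped with those of ZFAS1, and those of EPB41L4A-AS1 with those of SNHG1 (4.12 ± 0.076), so these neighbours have no firm order there. The SNHG28 and SNHG21 levels include reads of the genes they overlap. Exon length here counts every base listed as exon, which is the whole gene span in SNHG1, SNHG8, SNHG15 and EPB41L4A-AS1, among others. The order per kilobase therefore also depends on how each gene was annotated. SNHG14, long as it is, had only 0.151 ± 0.00265 CPM per kb in NC and 0.327 ± 0.00114 in KD.

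The table also lists the small RNAs themselves, 133 genes inside 28 members (108 SNORD, 21 SNORA and 4 SCARNA genes). Of these, 59 had no count in any library, and SNHG14 alone holds 48 SNORD115 and 30 SNORD116 genes. A mean of at least 10 counts in either group was reached by 23 rows in 14 hosts, of which 22 were tested. Of the 22, 1 rose on the TMM scale, 8 fell and 13 did not pass, beside 36.2% higher and 40.3% lower among all tested genes. The share of falls is thus not above that of all tested genes. Of the 22 rows, 18 lie in exons of their host, so that their reads are also host reads and are no independent measurement. SCARNA17 held counts equal to 62.0% of those of SNHG22 in NC and 79.3% in KD, and it fell from 1.97 ± 0.436 to 0.390 ± 0.107 CPM (log2 fold change -2.33 ± 0.277, edgeR adjusted p = 4.03e-08). SNORA61 held counts equal to 32.4% to 41.5% of those of SNHG12 and fell from 4.74 ± 0.305 to 3.18 ± 0.295 CPM (-0.58 ± 0.133, edgeR adjusted p = 0.000412). In SNHG29, SNORD49B fell from 2.51 ± 0.149 to 0.949 ± 0.085 CPM (-1.40 ± 0.197, edgeR adjusted p = 6.68e-07) and SNORD49A fell from 0.587 ± 0.160 to 0.144 ± 0.0142 CPM (-2.01 ± 0.443, edgeR adjusted p = 0.000247). Both lie within 2 SE of the host value of -1.53. The rise was that of SNORD108 in SNHG14, from 0.403, 0.415 and 0.376 CPM in NC to 1.35, 1.45 and 1.39 CPM in KD on the TMM scale (1.81 ± 0.276, edgeR adjusted p = 2.22e-06), and its leukocyte-scale value was 0.57 (edgeR adjusted p = 0.064). The remaining falls were those of SNORA9 in SNHG15 (-1.86), SNORA71A in SNHG17 (-1.59), SNORA16A in SNHG12 (-1.13) and SNORD22 in SNHG1 (-0.65). The rows that did not pass were SNORA73B, SNORD99, SNORA44, SNORD30, SNORD27, SNORD26, SNORD25, SCARNA15, SNORD104, SNORD52, SNORD50B, SNORD87 and SNORA17A, at group means of 0.169 to 1.52 CPM. SNORA71B was not tested. SNORA17A and ENSG00000281808, which cover the same stretch of SNHG7, had identical counts in 6 of 6 libraries, which shows that a read was counted for each gene it overlapped. Mature snoRNAs are short, and whether the libraries kept RNA of that length is not stated, so how much of these rows comes from host RNA was not tested.

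The sequences below, from GENCODE release 29, are those of 5 small RNAs whose rows passed the test inside SNHG29, SNHG14, SNHG12 and SNHG22, without SNORA16A, the less abundant of the 2 in SNHG12. In the box C/D snoRNAs the capitals mark the C box, searched as NTGATGA, and the D box, searched as CTGA near the other end, which was not found in SNORD108. In the box H/ACA snoRNA they mark the ACA near the 3′ end. SNORD49A and SNORD49B have an identical run of 35 bases, so reads inside it fit either row.
SNORD49A chr17:16440036-16440106, plus strand: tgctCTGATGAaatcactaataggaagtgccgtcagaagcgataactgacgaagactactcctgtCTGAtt
SNORD49B chr17:16439505-16439576, plus strand: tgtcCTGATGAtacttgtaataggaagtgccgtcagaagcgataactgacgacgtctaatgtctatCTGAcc
SNORD108 chr15:24986925-24986995, plus strand: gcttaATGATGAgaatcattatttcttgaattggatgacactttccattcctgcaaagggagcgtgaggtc
SNORA61 chr1:28579764-28579893, minus strand: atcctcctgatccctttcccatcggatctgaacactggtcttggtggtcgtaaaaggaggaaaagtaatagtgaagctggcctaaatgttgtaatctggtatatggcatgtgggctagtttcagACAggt
SCARNA17 chr18:49814133-49814276, plus strand: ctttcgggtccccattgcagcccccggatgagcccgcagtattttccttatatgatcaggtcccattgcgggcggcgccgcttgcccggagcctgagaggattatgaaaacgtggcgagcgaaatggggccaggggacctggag
The shared run is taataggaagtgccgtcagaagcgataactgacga.

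**Figure D3:**
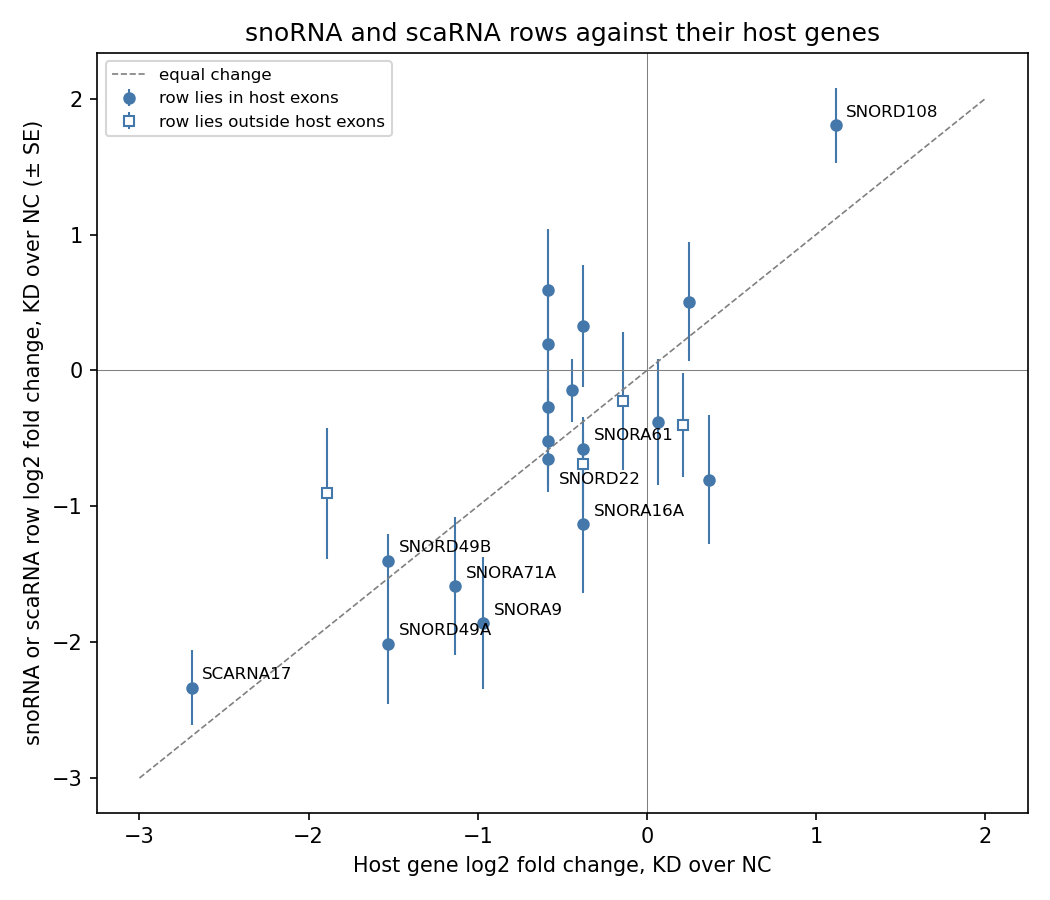
Log2 fold change, KD over NC on the TMM scale, of the 22 tested snoRNA and scaRNA rows (± SE) against that of their host gene, with filled points for rows in host exons, open squares for rows outside them and names on the 9 that passed the test. Of the 22 rows, 16 have the sign of their host, and SNORD108 is the single row that passed above 0.

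The start windows were set beside the changes as a description, with 36.2% of all tested genes higher and 40.3% lower on the TMM scale. Of the 6 tested members with the pyrimidine run, SNHG5 and ZFAS1 rose on the TMM scale only, SNHG12 fell, and SNHG4, SNHG19 and SNHG32 did not pass, with log2 fold changes from -0.50 to 0.42 and a median of -0.04. Of the 19 tested members with another start, 5 rose on the TMM scale, 13 fell and 1 did not pass, with values from -2.69 to 1.24 and a median of -0.58. The 5 members with the largest changes in size on the TMM scale, SNHG22, SNHG21, SNHG29, SNHG28 and SNHG10, were all among the 19, which far outnumber the 6. For SNHG14, SNHG20 and SNHG12 the RefSeq start lay 154975, 1927 and 1259 bases from the start of the counted gene. Most other tested members differed by less, such as ZFAS1 (464 bases), SNHG32 (308), SNHG29 (220), SNHG5 (199), GAS5 (163) and SNHG1 (68). The run was scored at the exact RefSeq start, so the windows of all these members may not be those of the RNA counted. Their place with or without the run is that of the RefSeq start only. The tested members SNHG6, SNHG15 and SNHG25 had no window in the table.

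The proteins that bind and build snoRNAs were measured in the same libraries. Of the 4 core proteins of box C/D particles, FBL, the ribose methyltransferase, fell from 111 ± 10.7 to 30.1 ± 0.807 CPM (log2 fold change -1.88 ± 0.057), and the scaffold proteins NOP56 (-1.60 ± 0.046) and NOP58 (-1.11 ± 0.049) fell too. SNU13, which binds the snoRNA itself, was at 21.1 ± 1.55 (NC) and 20.6 ± 1.02 (KD) CPM and did not pass on the TMM scale (edgeR adjusted p = 0.629). Of the 4 core proteins of box H/ACA particles, GAR1 (-1.15 ± 0.068), the pseudouridine synthase DKC1 (-1.02 ± 0.043) and NHP2 (-0.71 ± 0.066) fell. NOP10 rose from 12.1 ± 1.16 to 22.6 ± 1.36 CPM on the TMM scale (0.90 ± 0.077) but was lower on the leukocyte scale (-0.34). Of 12 assembly factors, 10 fell and 2 did not pass, with a median of -0.79. The smallest p belonged to the helicases RUVBL1 (-1.24 ± 0.040) and RUVBL2 (-0.90 ± 0.043) and the nucleolar proteins NOLC1 (-1.20 ± 0.044) and TCOF1 (-1.03 ± 0.043), and the largest fall to ZNHIT6 (-1.46 ± 0.072), named after its value was seen. The share of all tested genes that were lower was 40.3% on the TMM scale. On the leukocyte scale all 20 genes of these 3 lists were lower, as were 84.2% of all tested genes.

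Among all tested genes 36.2% were higher and 40.3% lower on the TMM scale, and 3.06% and 84.2% on the leukocyte scale. Beside these shares, nonsense-mediated decay factors moved in both directions on the TMM scale. Of 14, 4 rose, 6 fell and 4 did not pass, with a median of -0.05, equal to that of all tested genes, and on the leukocyte scale all 14 were lower, as most genes were. UPF3B (-2.05 ± 0.086) and the endonuclease SMG6 (-1.54 ± 0.061) fell most, and the exon junction proteins RBM8A (-0.47 ± 0.042) and MAGOH (-0.39 ± 0.042) fell less. The protein-coding genes that also host snoRNAs went mostly down, with 31 of 40 lower, 7 higher and 2 not passed on the TMM scale and a median of -0.33. Examples were NOP56, RPS2 (-1.33 ± 0.043), RPSA (-1.08 ± 0.043) and DKC1, where the 2 RPS genes encode ribosomal proteins. On the leukocyte scale all 40 were lower, with a median of -1.57, beside -1.65 for the noncoding hosts. Of 11 tested long noncoding RNAs outside the members, 7 rose on the TMM scale, 3 fell and 1 did not pass, with a median of 0.16. Whether any of these 11 also hosts snoRNAs was not examined. CYTOR (1.09 ± 0.076), MIR22HG (0.86 ± 0.108) and MALAT1 (0.51 ± 0.054) rose and CRNDE fell (-0.96 ± 0.063), and on the leukocyte scale 0 of the 11 were higher and 10 lower.

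**Figure D4:**
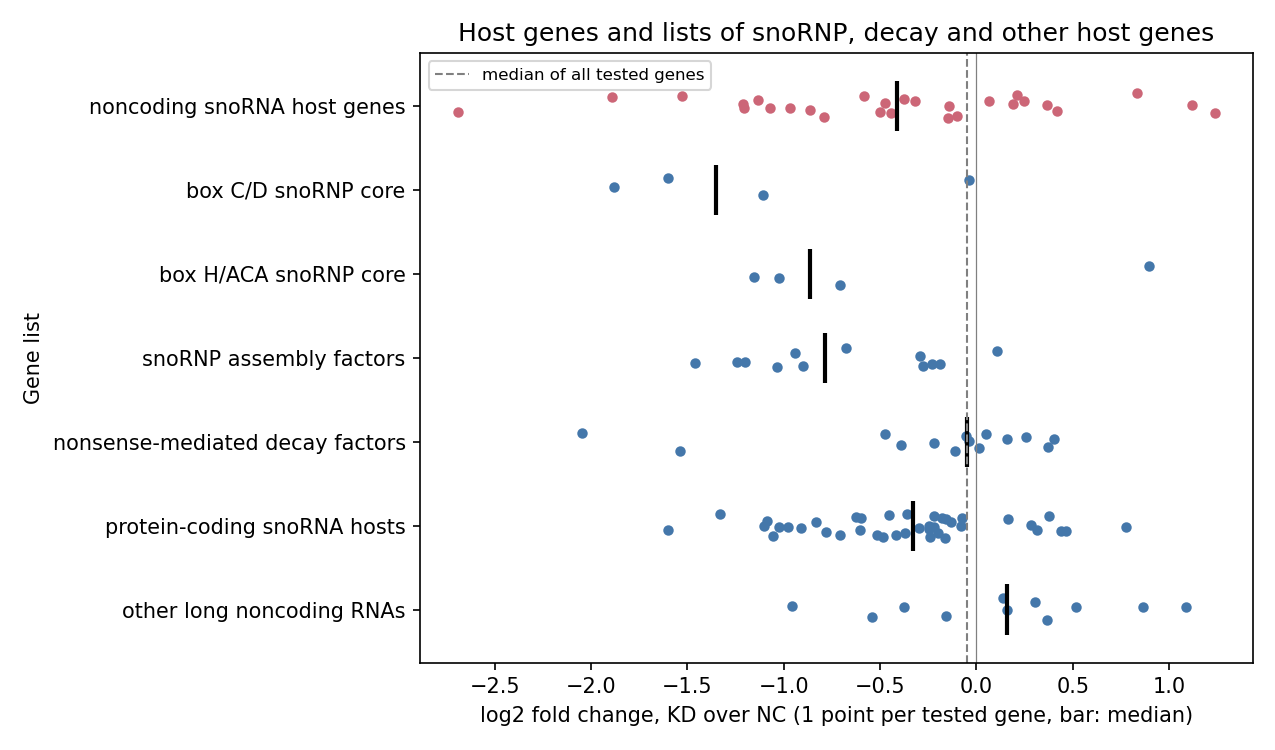
Log2 fold change, KD over NC on the TMM scale, of every tested gene of each list (1 point per gene) with a bar at the list's median and a dashed line at the median of all tested genes (-0.05). The bar of the noncoding host genes is at -0.41, close to that of the protein-coding hosts at -0.33, and the bars of the snoRNP core lists are at -1.35 and -0.87.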

How the data were processed

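RNA of 6 THP-1 samples was extracted with Vezol and sequenced on a DNBSEQ-T7 instrument, per the labels' protocols. Trimming used fastp 0.23.0 and the genome was GRCh38, per the submitters' processing notes. Aligner, counter, annotation release and strand setting were not given in the sources used here. Per the file header, the authors deposited raw counts per gene for 61267 genes with exon coordinates. From these counts edgeR 4.0.16 (R 4.3.3) gave TMM-scaled CPM and quasi-likelihood tests (robust fit, filterByExpr, 21905 genes), called two-sided at 0.05 after Benjamini-Hochberg adjustment over all genes, and the SE as the log2 fold change over the square root of F. The common biological coefficient of variation was 0.0499. Counts of library pairs within a group differed beyond sampling noise, at 3.24 to 6.46 chi-square units for each degree of freedom. Even numbers made up 67.8% to 70.3% of counts from 1 to 20, against 50.2% to 51.4% over 1000, a pattern that counting both reads of a pair gives, so low counts may be less precise than their size.

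Members and lists were chosen with earlier results of these data known. Every member was named: those of at least 10 CPM by library, lower ones by group mean, untested ones by counts. For each list the text names up to 4 genes with the smallest p, and for each member its exon partners and head-to-head genes, of which some are not reported here. Small RNA rows were named from a mean of 10 counts. Alternatives were DESeq2 1.42.0 and its size factors, limma-voom (limma 3.58.1), library sizes alone, the leukocyte scale, other filters, no robust fit, an adjusted p of 0.01, halved counts, a replicate block, each library left out in turn and, added after seeing the data, leaving out members with at least 50% shared exon bases. The edgeR steps were run on simulated counts with a single common dispersion. Of 50 genes each changed by 1.25-fold, 1.5-fold and 2-fold, 64%, 96% and 98% were called, beside 0.023% of 21705 unchanged genes. Few genes were changed there, in balanced directions, unlike in these data, so the simulation cannot speak to the choice of scale.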

Additional observations from a re-analysis of the deposited data

How the results depend on the processing

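The counts of 8 higher and 15 lower members and of 16758 genes in all were also obtained, or stayed within 1.5-fold, under the DESeq2 test, DESeq2 size factors, limma-voom, no filter, a 1 CPM filter, no robust fit, an adjusted p of 0.01 and halved counts. With library sizes alone 5 members were higher and 16 lower, and 37.5% of all calls were higher, against 47.3% on the TMM scale. On the leukocyte scale 0 members were higher and 26 lower, and 3.51% of all calls were higher. Log2 fold changes reversed there for SNHG3 (-1.02), SNHG28 (-0.00055), SNHG14 (-0.12), SNHG16 (-1.05), ZFAS1 (-0.82), EPB41L4A-AS1 (-0.40), SNHG32 (-1.17), SNHG5 (-0.99) and SNHG6 (-0.87). That scale sets leukocyte-restricted genes equal between the groups on average by construction. Of the 54 tested, 20 were higher and 19 lower on it, with a median of -0.017. SNHG32, which did not pass on the TMM scale, was also negative with library sizes alone (-0.12), and leaving out each library gave it -0.016 (without KD 1) to 0.21 (without KD 2). SNHG25 ran from -0.28 (without KD 1) to 0.0038 (without KD 3). Leaving out members with at least 50% shared exon bases, an alternative added after seeing the data, left 5 higher and 14 lower, since 3 of the 4 removed were higher. Leaving out each library in turn gave 7 to 9 higher members, 13 to 15 lower members and 16288 to 16661 genes in all. Libraries of the same replicate number showed little shared deviation from their group means (correlations of deviations 0.036, 0.026 and -0.079). These values cannot show whether such libraries were prepared together, and the labels do not say. A replicate block gave 8 higher, 15 lower and 16428 genes in all and changed no member's call. Depth limits members below 1 CPM, whose SE reached 0.449 on the log2 scale.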
